A study of Mus musculus with 8 samples.

Results

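The genes described here are 41 stress-response genes of mouse liver, taken by symbol from the 31910 rows of the deposited count table; no measured value enters the rule, but the list was drawn up with earlier results of these data known. They form 3 branches: 15 chaperones and quality-control factors of the endoplasmic reticulum, 11 genes of the ATF4 and CHOP arm of the integrated stress response, and 15 cytosolic and mitochondrial heat shock genes. All 41 were found in the table, and 39 passed the filter on low counts, among 12358 genes tested. The remaining 2, Hspa1a and Phgdh, had too few reads.

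The livers came from mice given the adeno-associated viral vector AAV2/9-SA (SA, 4 libraries) or AAV2/9-Ctrl (Ctrl, 4 libraries). The series design gives a dose of 4.8e10 vector genomes per mouse by tail vein after 7 weeks of feeding, and it names 3 diets: high-fat for 24 weeks, high-fat with cholesterol and sugar in the water for 16 weeks, and chow. The labels of these libraries give no diet, strain, sex or age, and they name the agent without saying what drives it. Whether each library was a different animal is not stated, and all p-values therefore describe differences among libraries, which may in part be technical. The series title speaks of a bacterial protein and acetyl-CoA carboxylase in steatohepatitis, and no question about stress responses is stated.

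Hepatocytes secrete most plasma proteins and so carry a large load of folding in the endoplasmic reticulum. When unfolded protein builds up there, the sensors IRE1, PERK and ATF6 raise chaperones and degradation factors, in part through the spliced form of Xbp1, and PERK, with other kinases of eIF2alpha, favours translation of ATF4, which drives amino acid genes and, when stress lasts, CHOP (Ddit3). Heat shock factor HSF1 separately raises cytosolic and mitochondrial chaperones when proteins misfold outside the endoplasmic reticulum. In fatty liver these pathways have been widely studied as markers of lipid-induced stress. RNA abundance, as measured here, does not show Xbp1 splicing, eIF2alpha phosphorylation or ATF4 protein.

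Total counts were 14114145 to 15922829 in 7 libraries and 28184001 in SA 4. Mitochondrially encoded genes took 4.18% to 4.87% of counts in SA and 3.55% to 9.23% in Ctrl, with the 9.23% in Ctrl 4 alone (exact permutation p = 0.857, two-sided, over 4 against 4 libraries; the smallest p this design allows is 0.0286). The tissue label matched its markers: 6 hepatocyte genes summed to 69090 to 91786 CPM in SA and 75743 to 105695 CPM in Ctrl. Sums of markers of other cells were 281 to 349 CPM in SA and 340.0 to 913 CPM in Ctrl for stellate cells and myofibroblasts, 310.4 to 418 CPM in SA and 224 to 379 CPM in Ctrl for macrophages, and 38.1 to 67.0 CPM in SA and 35.2 to 135 CPM in Ctrl for bile duct. The macrophage sum holds values of both signs: 5 of its 9 genes had an unadjusted p under 0.05 by edgeR, beside 6.21% of all genes tested. Of these, 4 were lower and 1 higher in SA. DESeq2 called 2 (Gpnmb and Cx3cr1, both lower), beside 0.477% of all genes, and edgeR called none. Of 6 bile duct genes tested, 5 had a lower fitted level in SA, 3 at an unadjusted p under 0.05 by edgeR. Of all genes tested, 3.29% were lower in SA at that p. Endothelial markers summed to 101 to 184 CPM in SA and 146 to 174 CPM in Ctrl. Of 4 tested, Lyve1 (log2 fold change -0.71) had an unadjusted p under 0.05 by edgeR, beside 6.21% of all genes. Pecam1 had -0.13, Stab2 0.35 and Kdr 0.08. The exocrine pancreas list summed to 7.59 to 16.4 CPM in SA and 8.40 to 19.0 CPM in Ctrl. That sum was Cela1 but for 1 count of Ctrb1, with Cpa1, Prss1, Pnlip and Amy2a5 listed at 0 in all libraries. Skeletal muscle markers summed to at most 0.188 CPM in SA and 0 in Ctrl. The part of these markers in the results below was not tested. All levels called CPM are counts per 1e6 counts after TMM scaling, and all log2 fold changes are SA over Ctrl.

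The known elements through which these pathways act could be read in promoter sequence for 36 of the 41 genes, in RefSeq windows of 300 bases (250 before the transcript start and 50 after; GRCm38.p6). Both strands were searched for exact matches to 4 motifs, whose matched letters are in capitals in the stretches printed further on; HSE matches on the 2 strands overlap each other. The endoplasmic reticulum stress element ERSE, bound by ATF6 with NF-Y, was in 5 of 14 endoplasmic reticulum genes (Hspa5, Hsp90b1, Creld2, Dnajc3 and Pdia6), in none of 11 ATF4-branch and none of 11 heat shock genes, and in 0.119% of all 32851 windows. Its variant ERSE-II was in Dnajb11 and Herpud1 and in 0.0365% of all windows. The amino acid response element CARE (TGATGNAA), bound by ATF4 with C/EBP proteins, was in 4 of 11 ATF4-branch genes (Asns, Atf3, Chac1 and Trib3), in Herpud1 and in 3.97% of all windows. The heat shock element HSE, bound by HSF1, was in 4 of 11 heat shock genes (Chordc1, Hspd1, Hspe1 and Hsph1) and in 0.603% of all windows. A match is a run of letters and not a site shown to be used, and no match says only that these letters were not in the window.

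The stretches below carry those motifs in genes whose levels are given further on, so that the element can be seen beside the data. Each reads 5′ to 3′ on the strand of its gene with the motif in capitals, cut to leave out exons annotated by GENCODE (release M21); where the motif itself lies in such an exon, 30 bases around it are shown. The coordinates are those of the RefSeq table, since the sources used here do not name the build behind the deposited counts.
Hspa5 (chr2:34772020-34772049, plus strand), ERSE: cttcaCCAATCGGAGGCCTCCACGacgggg
Hsp90b1 (chr10:86705510-86705694, minus strand), ERSE on both strands: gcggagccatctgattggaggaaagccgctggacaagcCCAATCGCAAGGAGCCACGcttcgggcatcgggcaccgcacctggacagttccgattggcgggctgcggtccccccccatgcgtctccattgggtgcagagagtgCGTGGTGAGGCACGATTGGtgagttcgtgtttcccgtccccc
Creld2 (chr15:88819396-88819645, plus strand), ERSE on the other strand: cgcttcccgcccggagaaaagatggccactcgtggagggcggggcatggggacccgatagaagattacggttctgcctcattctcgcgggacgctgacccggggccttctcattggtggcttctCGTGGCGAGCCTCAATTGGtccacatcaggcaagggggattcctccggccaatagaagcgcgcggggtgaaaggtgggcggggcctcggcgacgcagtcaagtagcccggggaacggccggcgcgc
Herpud1 (chr8:94386179-94386428, plus strand), CARE on the other strand and then ERSE-II: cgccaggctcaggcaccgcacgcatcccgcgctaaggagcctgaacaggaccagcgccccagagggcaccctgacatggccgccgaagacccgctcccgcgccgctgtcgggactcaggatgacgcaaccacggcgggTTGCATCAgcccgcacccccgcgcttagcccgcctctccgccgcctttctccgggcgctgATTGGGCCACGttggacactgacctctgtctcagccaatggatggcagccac
Chac1 (chr2:119350992-119351228, plus strand), CARE on the other strand: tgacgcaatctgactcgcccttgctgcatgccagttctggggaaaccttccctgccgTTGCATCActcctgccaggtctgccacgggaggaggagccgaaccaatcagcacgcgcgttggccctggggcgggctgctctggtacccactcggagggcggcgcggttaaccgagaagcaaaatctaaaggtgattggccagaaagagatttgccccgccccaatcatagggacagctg
Asns (chr6:7693214-7693243, minus strand), CARE: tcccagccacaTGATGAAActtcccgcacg
Hspe1 (chr1:55088025-55088131, plus strand), overlapping HSE on both strands: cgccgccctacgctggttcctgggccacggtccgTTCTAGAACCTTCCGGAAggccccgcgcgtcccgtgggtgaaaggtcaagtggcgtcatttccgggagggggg
Herpud1 alone of the 36 genes had both an ERSE-II and a CARE match. Hspd1 lies on the other strand beside Hspe1, and its RefSeq starts are 216 bases before and 95 bases past the Hspe1 start, so the same HSE letters stand upstream of Hspe1 and of the first of these Hspd1 starts.

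None of the 39 tested genes passed the threshold of an adjusted p under 0.05 by edgeR, and none did by DESeq2. Over all 12358 genes edgeR called 2 (0.0162%), 1 higher in SA (0.00809%) and 1 lower in SA (0.00809%), and DESeq2 called 59 (0.477%). At an unadjusted p under 0.05, edgeR gave 6 of the 39 (15.4%), 2 higher in SA and 4 lower in SA, beside 6.21% of all genes tested (2.91% higher, 3.29% lower), and DESeq2 also gave 6, beside 6.47% of all genes. The 6 were Ppp1r15a and Chac1 on the higher side, and Xbp1, Hspb1, Cryab and Hspa5 on the lower side. In 25 of the 39 genes (64.1%) the log2 fold change lay within 0.2 of 0, beside 63.3% of all genes tested. By branch these were 12 of 15 endoplasmic reticulum genes (80%), 4 of 10 ATF4-branch genes (40%) and 9 of 14 heat shock genes (64.3%). The median log2 fold change was -0.02 for the endoplasmic reticulum branch, 0.05 for the ATF4 branch and -0.12 for heat shock genes, beside -0.01 over all genes tested. The smallest adjusted p of any of the 39 was 0.621, and a p that misses the threshold does not show that levels were equal.

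**Figure D1:**
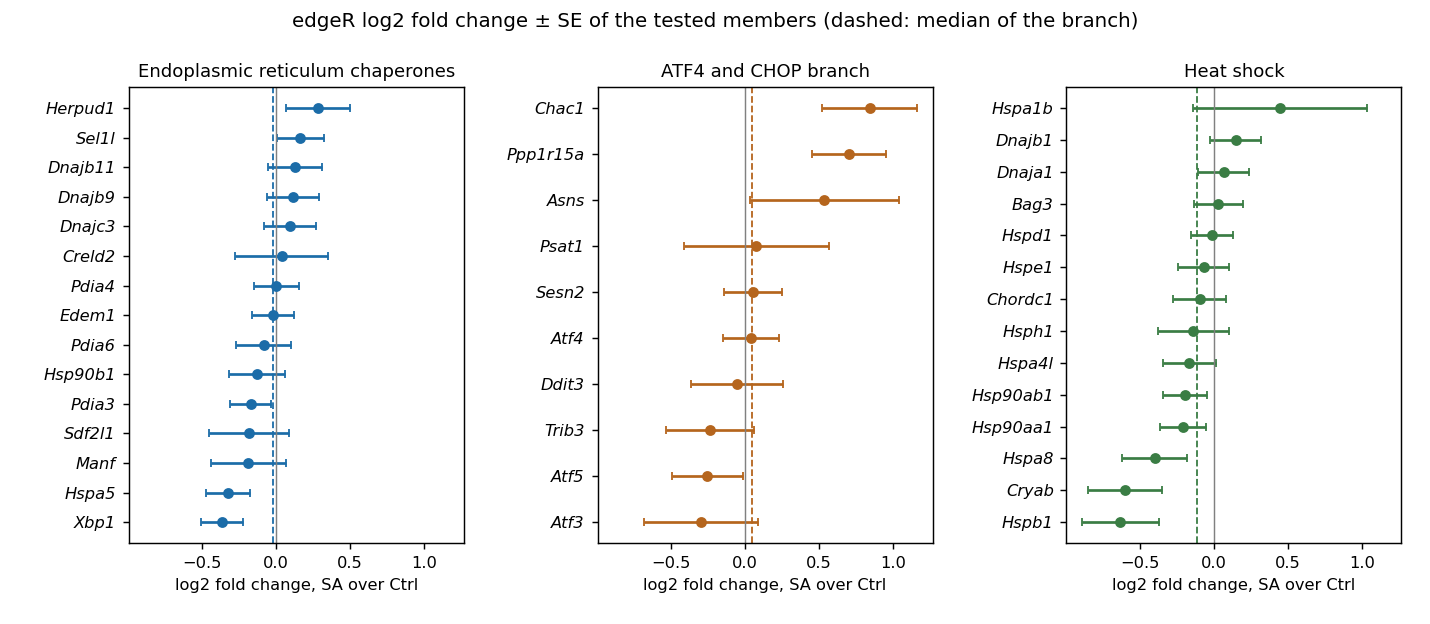
The edgeR log2 fold change of SA over Ctrl (horizontal axis) for each tested gene of the 3 branches, with bars of 1 SE; the dashed line is the median of the branch and the grey line is 0. Most points of the endoplasmic reticulum and heat shock branches lie within 0.2 of 0, and 4 of 10 do in the ATF4 branch. Chac1 and Ppp1r15a stand at the right end of the ATF4 branch, and Hspb1 and Cryab at the left end of the heat shock branch. No gene passed the threshold.

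In the endoplasmic reticulum branch 6 of 15 genes had a higher and 9 a lower fitted level in SA, and the 2 whose groups did not overlap, Hspa5 and Xbp1, were both lower in SA. Across all genes tested, 3.12% had groups that did not overlap, 1.66% with SA above and 1.46% with SA below. Hspa5 encodes BiP, the main Hsp70 chaperone of the endoplasmic reticulum, which also holds the stress sensors inactive. It stood at 644, 623, 538 and 504 CPM in SA 1 to 4, against 758, 680.0, 809 and 652 CPM in Ctrl 1 to 4. Every SA library was below every Ctrl library, the nearest pair being SA 1 and Ctrl 4. The means were 577 ± 66.8 CPM in SA and 725 ± 71.7 CPM in Ctrl (SD, n = 4 each), a log2 fold change of -0.33 ± 0.15 (SE) with an unadjusted p of 0.0458 and an edgeR adjusted p of 0.797. On the deposited FPKM values the same contrast of Hspa5 was 0.01 (limma on log2(FPKM + 1)). Its FPKM was 134 to 169 in SA, against 56.3 in Ctrl 4 and 176 to 258 in the other Ctrl libraries. FPKM divided by CPM of Hspa5 differed 3.70-fold between libraries and was lowest in Ctrl 4. The FPKM contrast thus includes a Ctrl 4 value that departs from its count.

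Xbp1 encodes the transcription factor that IRE1 activates by splicing its messenger. Its levels were 261, 221, 251 and 191 CPM in SA 1 to 4, against 308, 288, 321 and 273 CPM in Ctrl 1 to 4. SA 4 was the lowest of all 8 libraries and Ctrl 3 the highest, with no overlap. The log2 fold change was -0.37 ± 0.14 (SE), with an unadjusted p of 0.0242, an edgeR adjusted p of 0.699 and a DESeq2 adjusted p of 0.380. It lay between -0.43 and -0.29 when any 1 library was left out, and was -0.36 on FPKM values. Plasma cells also express much Xbp1: their and other lymphocyte markers summed to 16.5 to 43.3 CPM in SA and 17.7 to 32.1 CPM in Ctrl, with Ms4a1, Igkc and Mzb1 listed at 0 in all libraries. Of the 5 tested, DESeq2 called 1, beside 0.477% of all genes, and edgeR none. That gene was Cd8a, low but higher in SA, at 1.19 to 1.87 CPM against 0.121 to 0.341 CPM in Ctrl. Its adjusted p was 0.00250 by DESeq2 and 0.0819 by edgeR.

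The other chaperones of the branch overlapped between the groups. Hsp90b1 (GRP94), the Hsp90 of the endoplasmic reticulum, ran from 252 to 416 CPM in SA and 317 to 482 CPM in Ctrl, with SA 4 the lowest and Ctrl 4 the highest. The disulfide isomerases, which form and shuffle disulfide bonds, had log2 fold changes of -0.17 for Pdia3, 0.00 for Pdia4 and -0.09 for Pdia6. Pdia4 averaged 207 ± 30.6 CPM in SA and 207 ± 24.8 CPM in Ctrl (SD, n = 4 each), the same value to 3 digits. The DnaJ co-chaperones, which load clients onto BiP, were all on the higher side without passing the test: Dnajb9 had 0.11, Dnajb11 0.13 and Dnajc3 0.09. Dnajb11 was -0.27 with limma on log2(FPKM + 0.1), but its FPKM divided by CPM differed 208-fold between libraries. Among small induced proteins of the lumen, Sdf2l1 had a log2 fold change of -0.18 and the secreted factor Manf had -0.19.

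Degradation factors had values of both signs. Sel1l, the adaptor of the HRD1 ubiquitin ligase, had a log2 fold change of 0.16, and Edem1, a lectin that hands misfolded glycoproteins to it, had -0.02. Herpud1, a membrane protein of the same complex, had the widest positive difference of the branch with a log2 fold change of 0.28 ± 0.22 (SE) and an edgeR adjusted p of 0.989. Its levels were 339, 559, 434 and 607 CPM in SA 1 to 4, against 332, 380.3, 334 and 546 CPM in Ctrl 1 to 4. SA 2, SA 4 and Ctrl 4 were high and the other libraries lower, so the groups overlapped.

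Creld2 and Sdf2l1 had the largest within-group SD of the branch, 0.57 and 0.51 in log2 CPM. Creld2, a disulfide isomerase-like protein that is strongly induced by stress of the endoplasmic reticulum, stood at 49.3, 60.7, 37.3 and 28.2 CPM in SA 1 to 4, against 31.2, 39.4, 74.4 and 25.8 CPM in Ctrl 1 to 4. Ctrl 3 had 2.89 times the level of Ctrl 4, while the SA and Ctrl means differed by a log2 fold change of 0.04 ± 0.31 (SE). Sdf2l1 followed with 51.4, 46.5, 33.3 and 28.9 CPM in SA 1 to 4, against 39.3, 54.1, 63.5 and 24.3 CPM in Ctrl 1 to 4. Both genes were highest in Ctrl 3 among Ctrl libraries and lowest of all in Ctrl 4, and low in SA 4. Of the 15 genes, 7 (46.7%) had their highest level in Ctrl 3, beside 11.9% of all genes tested, and 6 (40%) had their lowest level in SA 4, beside 9.72% of all genes. The median deviation from the gene mean, in log2 CPM, was 0.22 in Ctrl 3 and -0.33 in SA 4. These shares describe 1 library each, and genes of the branch are not replicates of it. Ctrl 4 was mixed, with 9 of 15 genes above their own mean, beside 6239 of all 12358 genes tested. Hsp90b1, Pdia3 and Dnajb9 (20%) were at their highest there, beside 24.2% of all genes. Pdia6, Dnajb11, Sdf2l1 and Creld2 (26.7%) were at their lowest there, beside 25.1%. The shares at the highest and the lowest level were thus near those of all genes. Herpud1 had its highest level in SA 4, where 2 of the 15 genes were above their mean, beside 5982 of all 12358 genes tested. SA 4 was also the deepest library and Ctrl 4 the one with the high mitochondrial share; the part of either in these patterns was not tested.

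**Figure D2:**
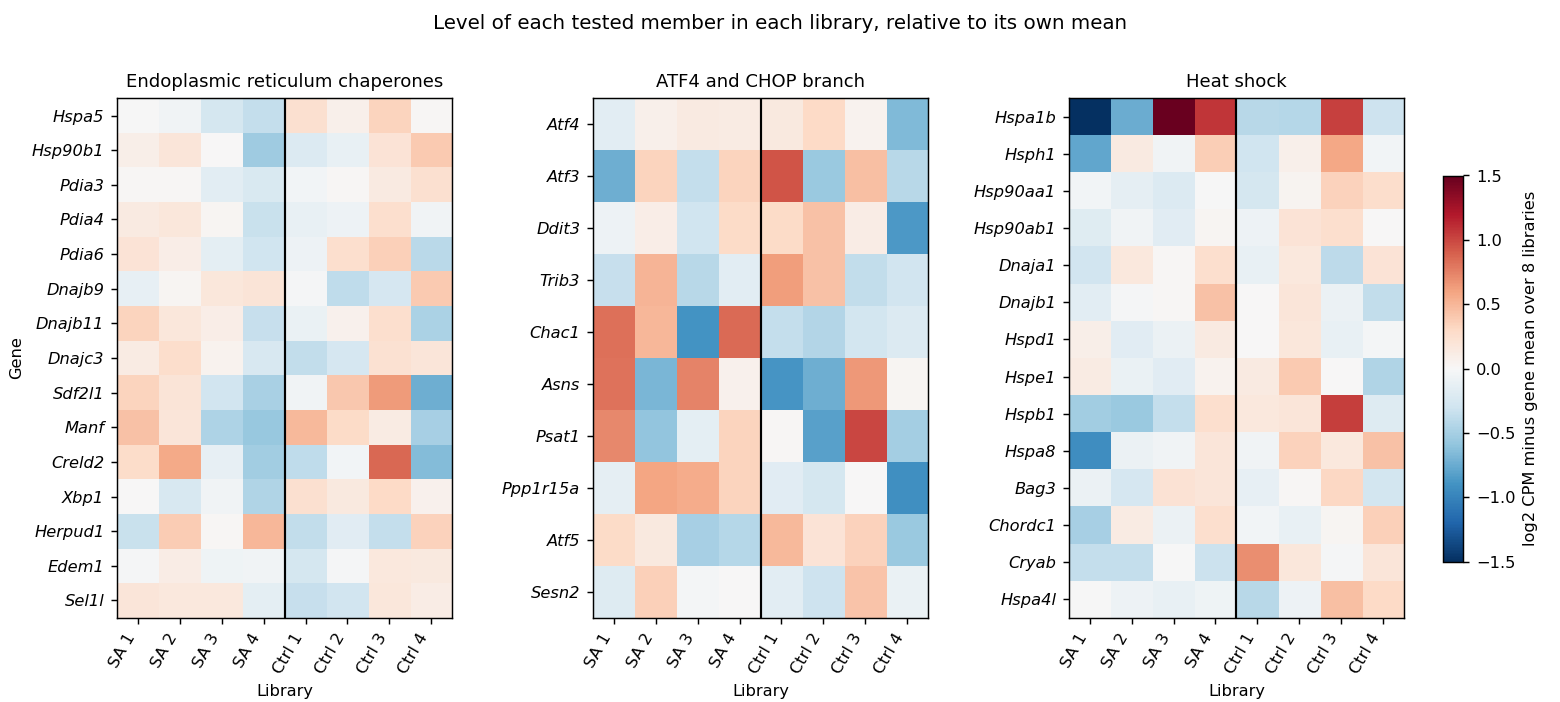
The log2 CPM of each of the 39 tested genes in each library minus the mean of that gene over the 8 libraries (colour), for the 3 branches, with SA 1 to 4 left and Ctrl 1 to 4 right of the line; colours saturate at the ends of the scale. Single columns stand out more than the sides do: the endoplasmic reticulum panel is red in Ctrl 3 (median 0.22) and blue in SA 4 (median -0.33), and Hspa1b has the strongest colours of the heat shock panel.

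In the ATF4 and CHOP branch, Chac1 and Ppp1r15a had the largest fitted differences, both toward higher levels in SA, while its transcription factors Atf4, Ddit3, Atf3 and Atf5 lay between -0.30 and 0.04. Of 10 genes tested, 6 were on the higher and 4 on the lower side. Atf4 itself, the factor that the branch is named for, had 57.2, 67.5, 70.3 and 69.6 CPM in SA 1 to 4, against 71.3, 79.2, 66.5 and 40.2 CPM in Ctrl 1 to 4. Ctrl 4 was the lowest library and Ctrl 2 the highest, and the SA libraries lay within the Ctrl range, with a log2 fold change of 0.04 ± 0.19 (SE). Ddit3, which encodes the pro-apoptotic factor CHOP, was low throughout, at 3.11 to 4.92 CPM in SA and 1.94 to 5.52 CPM in Ctrl, with a log2 fold change of -0.05 ± 0.31 (SE). Atf3, a stress-induced repressor, had -0.30 ± 0.38 (SE) and Atf5, a factor translated like ATF4 and abundant in liver, had -0.25 ± 0.24 (SE). Trib3, a pseudokinase that restrains ATF4, had -0.24 ± 0.30 (SE). Sesn2, a sestrin that damps growth signalling when leucine is short, had 0.05 ± 0.20 (SE). Each of these overlapped between the groups.

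Chac1, a CHOP-dependent enzyme that cleaves glutathione, had 14.2, 11.2, 3.94 and 14.5 CPM in SA 1 to 4, against 5.94, 5.58, 6.34 and 6.68 CPM in Ctrl 1 to 4. SA 1, SA 2 and SA 4 were above all Ctrl libraries, and SA 3 was below all of them. The Ctrl libraries were close together: the means were 10.9 ± 4.89 CPM in SA and 6.13 ± 0.475 CPM in Ctrl (SD, n = 4 each). The log2 fold change was 0.84 ± 0.32 (SE), with an unadjusted p of 0.0223 and an edgeR adjusted p of 0.697. Without SA 3 it was 1.12, with an adjusted p of 0.278, the smallest adjusted p of any of the 39 genes under any alternative tried. Chac1 carries the CARE letters shown above, as do Atf3, Asns and Trib3, whose log2 fold changes were -0.30, 0.54 and -0.24.

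Ppp1r15a encodes GADD34, the subunit that directs a phosphatase to eIF2alpha and so closes the response. Its levels were 6.77, 11.5, 11.3 and 9.55 CPM in SA 1 to 4, against 6.62, 6.14, 7.54 and 3.73 CPM in Ctrl 1 to 4. SA 2, SA 3 and SA 4 were above every Ctrl library, SA 1 lay inside the Ctrl range, and Ctrl 4 was the lowest. The means were 9.78 ± 2.18 CPM in SA and 6.01 ± 1.62 CPM in Ctrl (SD, n = 4 each), a log2 fold change of 0.70 ± 0.25 (SE) with an unadjusted p of 0.0154 and an edgeR adjusted p of 0.621. Without Ctrl 4 it was 0.52. No counterpart on FPKM exists, as Ppp1r15a is among the 4 genes that the FPKM table given here does not list.

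The amino acid synthesis genes of the branch were close to the limit of detection. Asns, asparagine synthetase, had 3.55, 0.938, 3.39 and 1.92 CPM in SA 1 to 4, against 0.751, 0.896, 3.14 and 1.87 CPM in Ctrl 1 to 4. SA 1, SA 3 and Ctrl 3 were the high libraries, and the log2 fold change was 0.54 ± 0.50 (SE). Psat1, of serine synthesis, ranged over 1.13 to 3.55 CPM in SA and 0.896 to 4.41 CPM in Ctrl, with Ctrl 3 the highest, and Phgdh, the first enzyme of the same route, over 0.402 to 0.615 CPM in SA and 0.121 to 0.409 CPM in Ctrl. Phgdh was below the filter in both groups and was not tested. Across the branch Ctrl 4 was the low library: 4 of 10 genes (40%) had their lowest level there, beside 25.1% of all genes tested. In Ctrl 4, 1 of 10 genes was above its own mean, beside 6239 of all 12358 genes tested. Without Ctrl 4 the branch median was -0.13, and over the other omissions it reached at most 0.15.

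**Figure D3:**
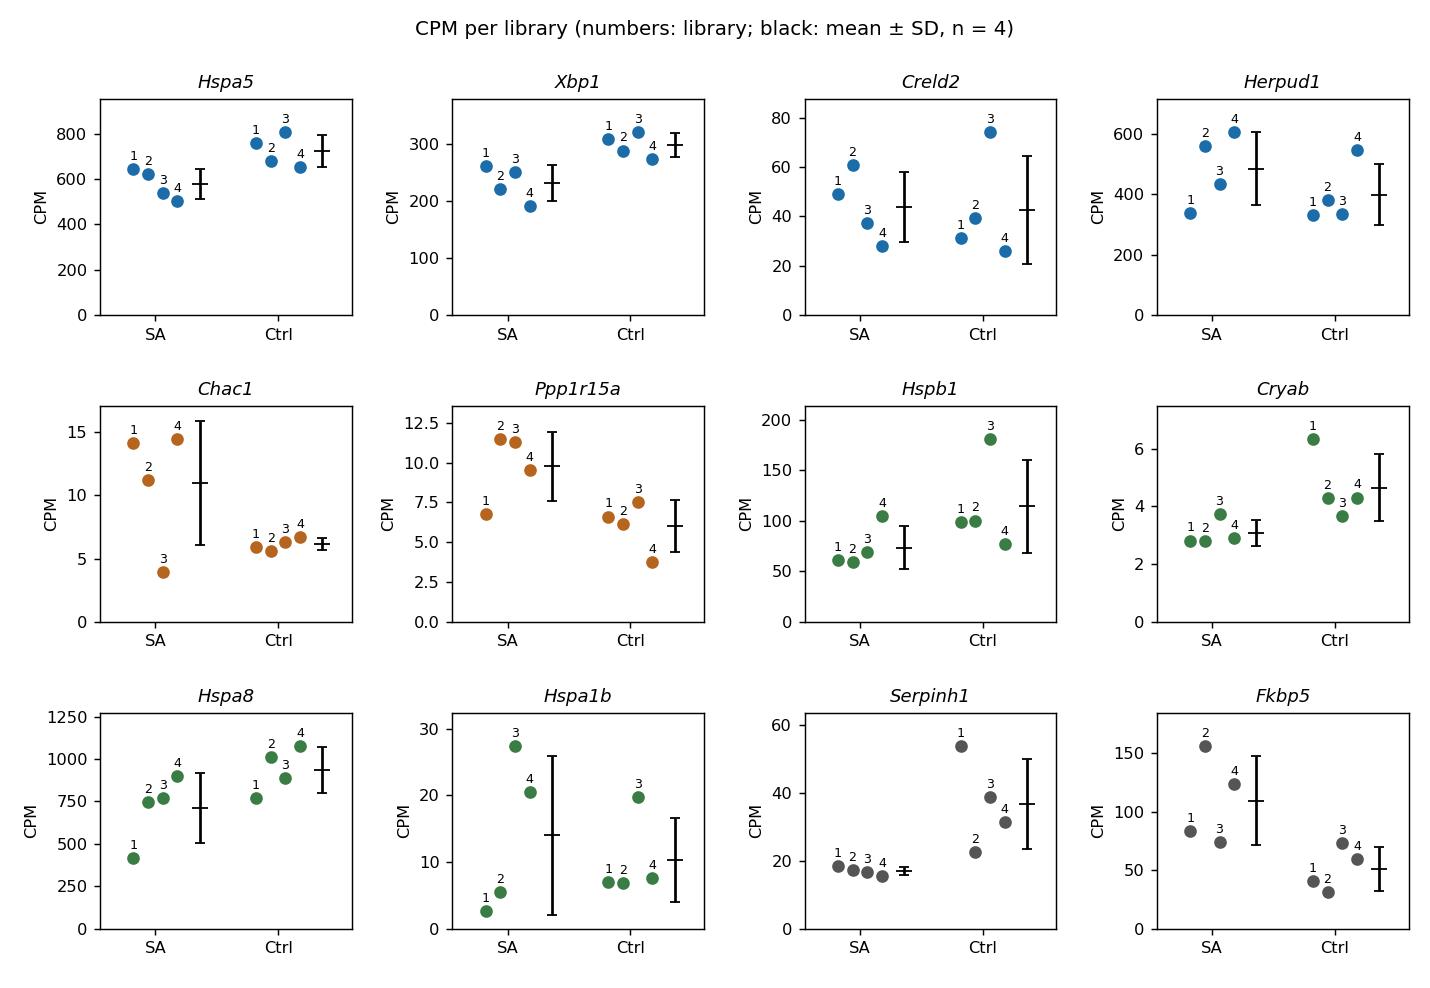
CPM (vertical axes, starting at 0) of 10 stress genes and of Serpinh1 and Fkbp5 in each library, SA left and Ctrl right in each panel; digits give the library, and the black mark is the mean ± SD of 4. Hspa5, Xbp1, Serpinh1 and Fkbp5 show no overlap between the groups, while SA 3 in Chac1, Ctrl 3 in Creld2 and Hspb1, and SA 1 in Hspa8 stand away from the rest of their group.

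Among heat shock genes 4 of 14 tested were on the higher and 10 on the lower side in SA, with a median of -0.12 that stayed between -0.20 and -0.07 when any 1 library was left out. No gene of the branch had groups that did not overlap. Hspb1 (Hsp27), a small heat shock protein that holds unfolded clients and binds actin, had the largest negative value. Its levels were 61.0, 59.4, 68.7 and 105 CPM in SA 1 to 4, against 98.3, 100.2, 181 and 76.7 CPM in Ctrl 1 to 4. Ctrl 3 stood far above all others, and SA 4 lay above Ctrl 1, Ctrl 2 and Ctrl 4. The log2 fold change was -0.63 ± 0.26 (SE), with an unadjusted p of 0.0301 and an edgeR adjusted p of 0.731, and it was -0.32 without Ctrl 3.

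Cryab, alphaB-crystallin, is another small heat shock protein, found in muscle, lens and stellate cells. It was near the low end of detection with 2.82, 2.82, 3.73 and 2.89 CPM in SA 1 to 4, against 6.35, 4.27, 3.68 and 4.31 CPM in Ctrl 1 to 4. Ctrl 1 was the highest, and SA 3 overlapped Ctrl 3. The log2 fold change was -0.60 ± 0.25 (SE), with an unadjusted p of 0.0323 and an edgeR adjusted p of 0.745, and -0.42 without Ctrl 1. Ctrl 1 was also the library with the highest sum of stellate cell and myofibroblast markers. That sum lay at 281 to 349 CPM in SA and at 913, 340.0, 468 and 749 CPM in Ctrl 1 to 4. Its exact permutation p was 0.0857, two-sided, and 0.643 after Benjamini-Hochberg adjustment over 9 such tests. Of that marker list 8 of 10 genes were tested, and all 8 had a negative log2 fold change. By edgeR 6 had an unadjusted p under 0.05, beside 3.29% of all genes tested that were lower in SA at that p. None had an adjusted p under 0.05, and Lrat was listed at 0. Fewer cells of a type and less RNA per cell cannot be told apart in whole liver, and the part of these markers in the Cryab value was not tested.

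Hspa8, Hsp90aa1 and Hsp90ab1 were abundant. Their log2 fold changes were negative without passing the test, except that Hsp90aa1 turned to 0.77 on FPKM. FPKM divided by CPM of Hsp90aa1 differed 9.13-fold between libraries, so its FPKM could not be read as a level. Hspa8 (Hsc70), the standing Hsp70 of the cytosol, had 416, 749.5, 769.8 and 900.5 CPM in SA 1 to 4, against 769.6, 1010.3, 888 and 1079 CPM in Ctrl 1 to 4. SA 1 was the lowest by a wide margin, SA 3 and SA 4 reached above Ctrl 1, and SA 4 also above Ctrl 3. The log2 fold change was -0.40 ± 0.22 (SE), with an edgeR adjusted p of 0.912, and was -0.21 without SA 1. The cytosolic Hsp90 pair, which matures kinases and steroid receptors, had -0.21 ± 0.16 (SE) for Hsp90aa1 and -0.20 ± 0.15 (SE) for Hsp90ab1. Hsp90ab1 had 1049, 1142, 1054 and 1212 CPM in SA 1 to 4, against 1129, 1365, 1419.6 and 1196 CPM in Ctrl 1 to 4. SA libraries overlapped Ctrl 1 and Ctrl 4, and Ctrl 2 and Ctrl 3 were above all SA libraries. Hspa4l, a nucleotide exchange factor of the Hsp110 family, had -0.17 and ranged over 45.1 to 48.5 CPM in SA and 36.4 to 66.7 CPM in Ctrl. All SA values lay within the Ctrl range.

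The inducible gene Hspa1b had the widest spread between libraries of a group in its branch, a within-group SD of 1.17 in log2 CPM. Hspa1b, the stress-induced Hsp70, had 2.62, 5.44, 27.5 and 20.5 CPM in SA 1 to 4, against 6.96, 6.89, 19.7 and 7.54 CPM in Ctrl 1 to 4. SA 3, SA 4 and Ctrl 3 were high and the other 5 libraries low, so that the level differed 10.5-fold among SA libraries and 2.86-fold among Ctrl libraries. The log2 fold change was 0.44 ± 0.59 (SE), and -0.09 without SA 3. Hspa1a, its near-identical neighbour, had 0 to 6 counts in any library. It took 22 of the 1745 counts of the pair, or 1.26% (95% exact Clopper-Pearson interval 0.792% to 1.90%, for counting error only), and how reads that match both genes were assigned is not known. The deposited FPKM table, in contrast, lists Hspa1a at 0.592 to 7.39 FPKM in SA and 1.12 to 5.62 FPKM in Ctrl, near Hspa1b at 1.92 to 21.3 FPKM in SA and 4.38 to 8.73 FPKM in Ctrl. With both added up the log2 fold change was 0.44. Hsph1 (Hsp105), which is also a target of HSF1, ranged over 31.0 to 68.9 CPM in SA and 43.4 to 80.1 CPM in Ctrl, with SA 1 the lowest and Ctrl 3 the highest, Dnajb1 over 21.9 to 33.3 CPM in SA and 18.9 to 27.8 CPM in Ctrl, and Bag3, a partner of Hsp70 in selective autophagy, over 34.3 to 47.7 CPM in SA and 33.8 to 50.9 CPM in Ctrl. Their log2 fold changes were -0.14, 0.15 and 0.03. Chordc1, an Hsp90 partner with HSE letters in its promoter, had -0.10, and Dnaja1, a farnesylated Hsp70 partner, 0.06.

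The mitochondrial chaperonin pair folds imported proteins. Hspd1 (Hsp60), with the smallest within-group SD of the branch (0.13 in log2 CPM), had 506, 425, 449 and 522 CPM in SA 1 to 4, against 478, 536, 439.9 and 466 CPM in Ctrl 1 to 4. Its lowest and highest libraries, SA 2 and Ctrl 2, were from different groups, and its log2 fold change was -0.01 ± 0.14 (SE). Hspe1 (Hsp10), beside it, had -0.07. The ratio of Hspd1 to Hspe1 CPM was 4.94 to 5.48 in SA and 4.44 to 6.92 in Ctrl, with the 6.92 in Ctrl 4, which had the highest mitochondrial share of counts.

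The standard error of the log2 fold change was 0.14 to 0.31 in the endoplasmic reticulum branch, 0.19 to 0.50 in the ATF4 branch and 0.14 to 0.59 for heat shock genes. For genes with a mean of at least 10 CPM, the median within-group SD of log2 CPM was 0.26 over 15 endoplasmic reticulum genes, 0.32 over 3 ATF4-branch genes and 0.27 over 13 heat shock genes, beside 0.24 over 7931 genes. Heat shock genes had their highest level in Ctrl 3 in 6 of 14 cases (42.9%, beside 11.9% of all genes tested) and their lowest in SA 1 in 5 of 14 (35.7%, beside 8.12%).

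Other genes of the same pathways, taken from 4 lists, were read from the same fit. Of 13 sensors and transcription factors, all tested, 8 were on the higher and 5 on the lower side, all within 0.2 of 0 in log2, and none had an unadjusted p under 0.05. The kinases Eif2ak1 and Eif2ak2, which phosphorylate eIF2alpha, had 0.13 and 0.17, and Mbtps1, the protease that releases ATF6, had 0.16. Of 21 further folding and degradation genes tested, 9 were higher and 12 lower with a median of -0.03, and none had an unadjusted p under 0.05. The 3 with the smallest p were Txndc5, Pdia5 and Derl2, at 0.18, 0.15 and -0.18, where Txndc5 and Derl2 turned sign on FPKM. Of 25 further ATF4 targets tested, 12 were higher and 13 lower with a median of -0.02, and again none reached that p. Nupr1, a stress-induced cofactor, had a log2 fold change of -0.84 ± 0.48 (SE), Aldh18a1, of proline synthesis, -0.57 ± 0.28 (SE), and Gars, the glycyl-tRNA synthetase, -0.24 ± 0.13 (SE). Of the 25, only Gars had groups that did not overlap, beside 3.12% of all genes tested. It was at 43.0 to 48.4 CPM in SA and 48.8 to 61.0 CPM in Ctrl. Slc7a11, below the filter and not tested, had 0.134 to 0.253 CPM in SA and 0.414 to 1.91 CPM in Ctrl.

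Of 36 other chaperones tested, 15 were higher and 21 lower with a median of -0.02, and 2 of the 36 had log2 fold changes past 1 in size, in opposite directions. Those 2 were the ones called by DESeq2 (beside 0.477% of all genes) and the ones with an edgeR unadjusted p under 0.05 (beside 6.21%); edgeR called none. Serpinh1 (HSP47), the collagen chaperone of the endoplasmic reticulum, had 18.6, 17.3, 16.9 and 15.5 CPM in SA 1 to 4, against 54.0, 22.6, 38.9 and 31.5 CPM in Ctrl 1 to 4. The SA libraries were close together and all below the Ctrl libraries. The means were 17.1 ± 1.27 CPM in SA and 36.8 ± 13.3 CPM in Ctrl (SD, n = 4 each), a log2 fold change of -1.11 ± 0.23 (SE) with an edgeR adjusted p of 0.227, which did not pass, and a DESeq2 adjusted p of 0.00250, which did. Among Ctrl libraries both Serpinh1 and the stellate cell and myofibroblast sum given above were highest in Ctrl 1 and lowest in Ctrl 2, but Serpinh1 was higher in Ctrl 3 than in Ctrl 4 and the sum was lower; the part of those markers in the Serpinh1 value was not tested.

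Fkbp5, an immunophilin that docks on Hsp90 of steroid receptors and is a known target of glucocorticoids, had 83.2, 157, 74.5 and 123 CPM in SA 1 to 4, against 40.9, 31.5, 73.3 and 59.9 CPM in Ctrl 1 to 4. SA 3 and Ctrl 3 were next to each other, and no SA library lay below a Ctrl library. The means were 109 ± 38.0 CPM in SA and 51.4 ± 18.8 CPM in Ctrl (SD, n = 4 each), a log2 fold change of 1.09 ± 0.28 (SE) with an edgeR adjusted p of 0.367, which did not pass, and a DESeq2 adjusted p of 0.0303, which did. Ptges3 (p23), the cochaperone of the same Hsp90 complexes, had -0.35 ± 0.16 (SE) with an edgeR adjusted p of 0.814.

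The deposited FPKM values are per length, and 37 of the 41 genes are listed there. The lengths used are not given here, so the order below is that of the deposited values and was not tested. By CPM it can differ. Hspa5 had means of 577 CPM in SA and 725 CPM in Ctrl, and Hsp90b1 356 and 390 CPM. Their median FPKM were 165 and 421. Among genes whose FPKM followed their counts, medians over the 8 libraries put the standing cytosolic chaperones first, with Hsp90ab1 at 628 FPKM and Hspa8 at 517 FPKM, then Hsp90b1 at 421, Herpud1 at 321, Atf5 at 287, Pdia3 at 285 and Hspd1 at 266 FPKM. Toward the low end Ddit3 had 5.50 FPKM, Chac1 5.49 FPKM, Trib3 4.29 FPKM and Atf3 1.91 FPKM. Over the 8 libraries the ranges of neighbours in this order overlapped: Hsp90ab1 spanned 538 to 670 FPKM in SA and 558 to 901 FPKM in Ctrl, and Hspa8 248 to 528 FPKM in SA and 507 to 653 FPKM in Ctrl.

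For some genes the FPKM could not be read as a level. A library's FPKM divided by its CPM should be nearly constant for a gene, and for Hsp90ab1 it was 0.513 to 0.553 in SA and 0.463 to 0.634 in Ctrl. For 8 of 36 genes it differed over 5-fold between libraries (22.2%, beside 22.3% of 7940 genes in both tables). These were Pdia6, Dnajb11, Manf, Edem1, Hsph1, Hsp90aa1, Dnaja1 and Cryab. Dnajb11, for example, had ratios of 0.00353, 0.706, 0.700 and 0.00507 in SA 1 to 4 and 0.733, 0.00907, 0.00834 and 0.607 in Ctrl 1 to 4. The low and high ratios fell in both groups, while the counts of Dnajb11 were within 80.0 to 128 CPM in SA and 73.2 to 121 CPM in Ctrl. For Dnaja1 the highest ratio was 299 times the lowest. The CPM values above do not depend on these ratios.

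**Figure D4:**
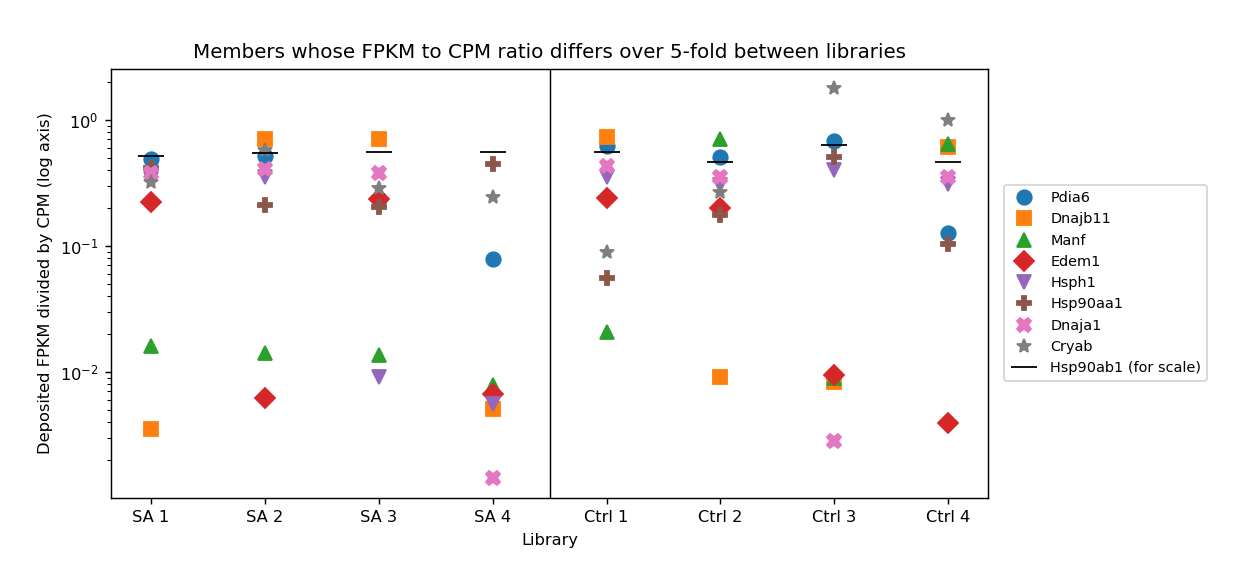
The deposited FPKM of a gene divided by its CPM in each library (logarithmic vertical axis), SA left and Ctrl right of the line, for the 8 genes in which it differs over 5-fold between libraries; the black bars are Hsp90ab1, shown for scale. Hsp90ab1 stays between 0.463 and 0.634, whereas single genes drop in some libraries of both groups, as Dnaja1 does in SA 4 and Ctrl 3.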

How the data were processed

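RNA sequencing of 8 liver samples, 4 labelled AAV2/9-SA and 4 AAV2/9-Ctrl, gave the values used. Per the labels' protocols, frozen liver was extracted with RNAiso Plus and a NEBNext Ultra kit made the libraries; no strand-specific step is named, so antisense neighbours may share reads. The authors deposited raw counts per gene, whole numbers without normalization, and a table of FPKM for fewer genes. The submitters' processing notes list FastQC 0.19.7, HISAT2, StringTie 2.2.1 and the builds GRCm39 and mm10; the sources used here do not name the program that counted reads.

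The 41 genes and all lists were chosen with earlier results of these data known. All 41 are named; of 4 pathway lists, the 3 genes with the smallest p are. Counts were fitted with the edgeR 4.0.16 quasi-likelihood F test in R 4.3.3 (TMM factors, filterByExpr, no covariate), with Benjamini-Hochberg adjustment over 12358 genes and a threshold of 0.05. Each SE is the log2 fold change divided by the square root of F. Depth was 14114145 to 28184001 counts per library, and the biological coefficient of variation was 22.6%. Single values per library were compared by exact permutation over 70 splits. The fit was tested on simulated counts. Alternatives were RLE and upper quartile factors, DESeq2 1.42.0, limma-voom (limma 3.58.1), no count filter, a filter at 1 CPM in 4 libraries, limma on logged FPKM with a pseudocount of 1 or 0.1 for genes reaching 0.5 FPKM in 4 libraries, and with 1 for all listed genes, omission of each library, the replicate number as a block, the mitochondrial share as a covariate, and Hspa1a and Hspa1b added up. No 2 libraries agreed within sampling noise (lowest chi-square per degree of freedom 24.6).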

Additional observations from a re-analysis of the deposited data

Results flagged for a closer look

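In 4 of 78 groups of 4 libraries, 1 library stood apart from the other 3 by Dixon's criterion; chance gives about 1 in 20. Pdia4 stood at 244 CPM in Ctrl 3, against 191 to 198 CPM in the rest of Ctrl. Sel1l stood at 176 CPM in SA 4, against 215 to 219 CPM in the rest of SA. Hspa1b stood at 19.7 CPM in Ctrl 3, against 6.89 to 7.54 CPM in the rest of Ctrl. Cryab stood at 3.73 CPM in SA 3, against 2.82 to 2.89 CPM in the rest of SA. Ctrl 3 accounts for 2 of the 4. It is also the library in which 7 of 15 endoplasmic reticulum genes and 6 of 14 heat shock genes were highest, beside 11.9% of all genes tested. Pdia4 is itself among those 7.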

How the results depend on the processing

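No gene of the 39 was called under any alternative. The 39 genes gave 733 values under the alternatives: 660 kept the direction, 73 turned sign without passing the threshold, and 17 genes never turned. Serpinh1 and Fkbp5 passed the threshold with DESeq2. Over all genes, 1 was higher and 1 lower in SA. DESeq2 gave 24 and 35, no filter 3 and 5, and each FPKM fit 0 and 3, higher and lower; limma-voom gave 2 lower and the mitochondrial covariate 0 lower. Omitting 1 library gave 0 to 13 higher and 0 to 6 lower, with 13 and 6 without SA 1 and none without Ctrl 4. The causes were not tested.

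With the replicate number as a block, 1 gene was higher and 5 lower, none of the 39 was called and none of their values turned sign. Deviations from the group mean correlated between same-numbered libraries 1 to 4 at r = -0.02, -0.02, 0.22 and -0.22. For differently numbered libraries r ran from -0.25 to 0.25. So few pairs cannot show whether the numbers pair libraries, and the labels do not say so.

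Values that turned sign were -0.00263 for Creld2, -0.000759 for Atf4 and -0.00831 for Bag3 with upper quartile factors, -0.00432, -0.0270 and -0.0196 for the same 3 with the mitochondrial covariate, 0.0464 for Ddit3 with limma-voom and 0.00257 for Pdia4 without a filter. With limma on log2(FPKM + 1), filtered or not, they were 0.00547 for Hspa5, 0.0415 for Pdia4, 0.0417 for Edem1, 0.134 for Ddit3, 0.765 for Hsp90aa1, -0.0788 for Dnaja1, 0.0169 for Hspd1, -0.0293 for Bag3, -1.286 for Txndc5 and 2.135 for Derl2. With log2(FPKM + 0.1) they were 0.00734, 0.0419, 0.0478, 0.159, 0.784, -0.122, 0.0169, -0.0293, -1.504 and 2.759 for the same 10 genes in that order and -0.27 for Dnajb11. Of these genes, Edem1, Hsp90aa1, Dnaja1 and Dnajb11 are among the 8 whose FPKM divided by CPM differed over 5-fold between libraries. Their FPKM could not be read as a level.

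Omitting 1 library turned the sign of 20 genes, with ranges of -0.497 to 0.0699 for Atf3, -0.135 to 0.161 for Atf4, -0.0596 to 0.151 for Bag3, -0.21 to 0.0345 for Chordc1, -0.16 to 0.45 for Creld2, -0.292 to 0.115 for Ddit3, -0.0409 to 0.163 for Dnaja1, -0.00687 to 0.24 for Dnajb1, -0.00229 to 0.239 for Dnajb11, -0.00824 to 0.19 for Dnajc3, -0.112 to 0.0301 for Edem1, -0.089 to 0.978 for Hspa1b, -0.069 to 0.0493 for Hspd1, -0.211 to 0.0694 for Hspe1, -0.306 to 0.0603 for Hsph1, -0.0551 to 0.0909 for Pdia4, -0.22 to 0.0296 for Pdia6, -0.212 to 0.723 for Psat1, -0.398 to 0.0274 for Sdf2l1 and -0.0668 to 0.243 for Sesn2. The branch medians lay at -0.13 to 0.03 for endoplasmic reticulum genes, -0.13 to 0.15 for ATF4-branch genes and -0.20 to -0.07 for heat shock genes over the omissions. The largest SEs were those of Hspa1b (0.59), Asns (0.50), Psat1 (0.49) and Atf3 (0.38), of which the last 3 averaged under 10 CPM in both groups.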
